A study of Homo sapiens with 9 samples.

Results

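The genes of 7 proteins known from prostate epithelium were followed in LNCaP, an androgen-responsive human prostate cancer line established from a lymph node metastasis: KLK2, KLK3, KLK11, ACP3, AZGP1, MSMB and FOLH1. Members were all probe sets that the platform annotation gives to these symbols, 15 of the 22215 probe sets on the Affymetrix array that are not controls. Of these, 11 carry a member's symbol alone and are counted below, and 4 share it with a near-identical gene (FOLH1 with FOLH1B, AZGP1 with the pseudogene AZGP1P1) and are kept apart. All cultures were starved of androgen for 2 days in RPMI with 10% charcoal-stripped serum. Some then received 20 µM gedunin, a plant limonoid, together with 1 nM R1881, a synthetic androgen. Others received 1 nM R1881 with DMSO, or ethanol with DMSO as vehicle. There were 3 arrays per treatment, numbered as biological replicates in their titles. Nothing in the labels says how the cultures were separated, so the p-values measure the spread between these arrays. The labels give 24 h for every group, but the titles of the R1881 arrays give 6 h where their descriptions give 24 h. A difference in duration can therefore not be told apart from treatment in comparisons that use those arrays, and no group with gedunin alone was analysed here.

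Luminal cells of the prostate secrete a fluid rich in a few proteins, and the androgen receptor, a hormone-bound transcription factor that is folded with the help of HSP90, drives several of their genes through binding sites in promoters and enhancers. KLK3 encodes prostate-specific antigen, the protease that liquefies semen, and KLK2 a related trypsin-like protease that can activate its precursor. KLK11 is another serine protease of the same gene cluster, ACP3 is prostatic acid phosphatase, AZGP1 is the zinc-binding glycoprotein zinc-alpha-2-glycoprotein and MSMB is beta-microseminoprotein. FOLH1 encodes prostate-specific membrane antigen, a membrane-bound glutamate carboxypeptidase that is anchored in the membrane rather than secreted and is known in LNCaP cells as a gene lowered by androgen.

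Values are RMA intensities on a linear scale, and the median of an array lay between 52.4 and 54.5. They were compared as log2 values with limma over all 22215 probe sets, and a probe set was called at a Benjamini-Hochberg adjusted p under 0.05. The androgen-induced genes go against the labels of the androgen and vehicle arrays. FKBP5, a co-chaperone gene, averaged 122 ± 16.04 on the gedunin arrays, 45.1 ± 3.15 on the R1881-labelled arrays and 1815 ± 147 on the vehicle-labelled arrays (intensity, SD, n = 3 each). TMPRSS2, a membrane protease gene, averaged 959 ± 118, 187 ± 6.51 and 3159 ± 179 on the gedunin arrays, the R1881-labelled arrays and the vehicle-labelled arrays. Groups are therefore named by their labels, and every direction that involves the R1881-labelled or vehicle-labelled arrays rests on labels that these genes contradict. Of the 7 measured luminal markers that are no members, 5 (KRT8, KRT18, CDH1, EPCAM and CD24) averaged above 52.4 in every group and 2 (KRT19 and DPP4) under it in every group. Of 8 basal markers, 6 averaged under 52.4 in every group, KRT5, KRT14 and KRT15 among them, and 1 (DST) above it. The split was 6 under and 2 above (CD3D and CD3E) for 8 leukocyte markers, with PTPRC under, and 6 under and 3 above (SYP, NCAM1 and CALCA) for 10 neuroendocrine markers, with CHGA under. Of 10 fibroblast markers, 4 were under and 6 above, with COL1A1 and VIM above. Over the 3 comparisons, 1 of 8 measured basal markers was called (ITGA6, at most 0.30 in log2), 2 of 10 neuroendocrine markers (ENO2, at most 0.86, and CHGB, 0.17), 1 of 10 fibroblast markers (VIM, 0.30) and 0 of 8 leukocyte markers by limma, of which 0, 2 and 1 had an unadjusted p under 0.05 in the R1881 against vehicle, gedunin against R1881 and gedunin against vehicle comparisons. Over all genes, each taken by its brightest probe set, 29.5%, 26.7% and 26.2% were called in these comparisons, in the same order. Of 11 measured luminal markers, 4 of them members, 3 were called higher and 5 lower, 5 higher and 1 lower, and 2 higher and 6 lower. Summed levels of the neuroendocrine markers ran from 378 to 390 on the gedunin arrays, 382 to 395 on the R1881-labelled arrays and 373 to 376 on the vehicle-labelled arrays. In RNA of whole cultures, fewer cells that express a gene and less RNA per cell cannot be told apart.

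Against the R1881-labelled arrays, the gedunin arrays were higher in 6 of the 11 probe sets (all 3 of KLK2, both of KLK3 and that of AZGP1), lower in 2 (ACP3 and FOLH1), and not called in 3 (KLK11 and both of MSMB). The R1881-labelled arrays were lower than the vehicle-labelled arrays in the same KLK2, KLK3 and AZGP1 probe sets and higher in FOLH1, with 4 not called. Against the vehicle-labelled arrays, the gedunin arrays were lower in 7 and higher in 1, FOLH1. Over all probe sets, 24.3% were called between the gedunin arrays and the R1881-labelled arrays, 27% between the R1881-labelled and vehicle-labelled arrays, and 23.5% between the gedunin arrays and the vehicle-labelled arrays. Probe sets of 1 gene share its transcripts, so the 11 are not independent, and the members were chosen with earlier results of these data known. The median log2 fold change of the 11 was 0.74, -1.69 and -0.84 in this order, beside -0.01, 0.00 and -0.01 over all probe sets.

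**Figure D1:**
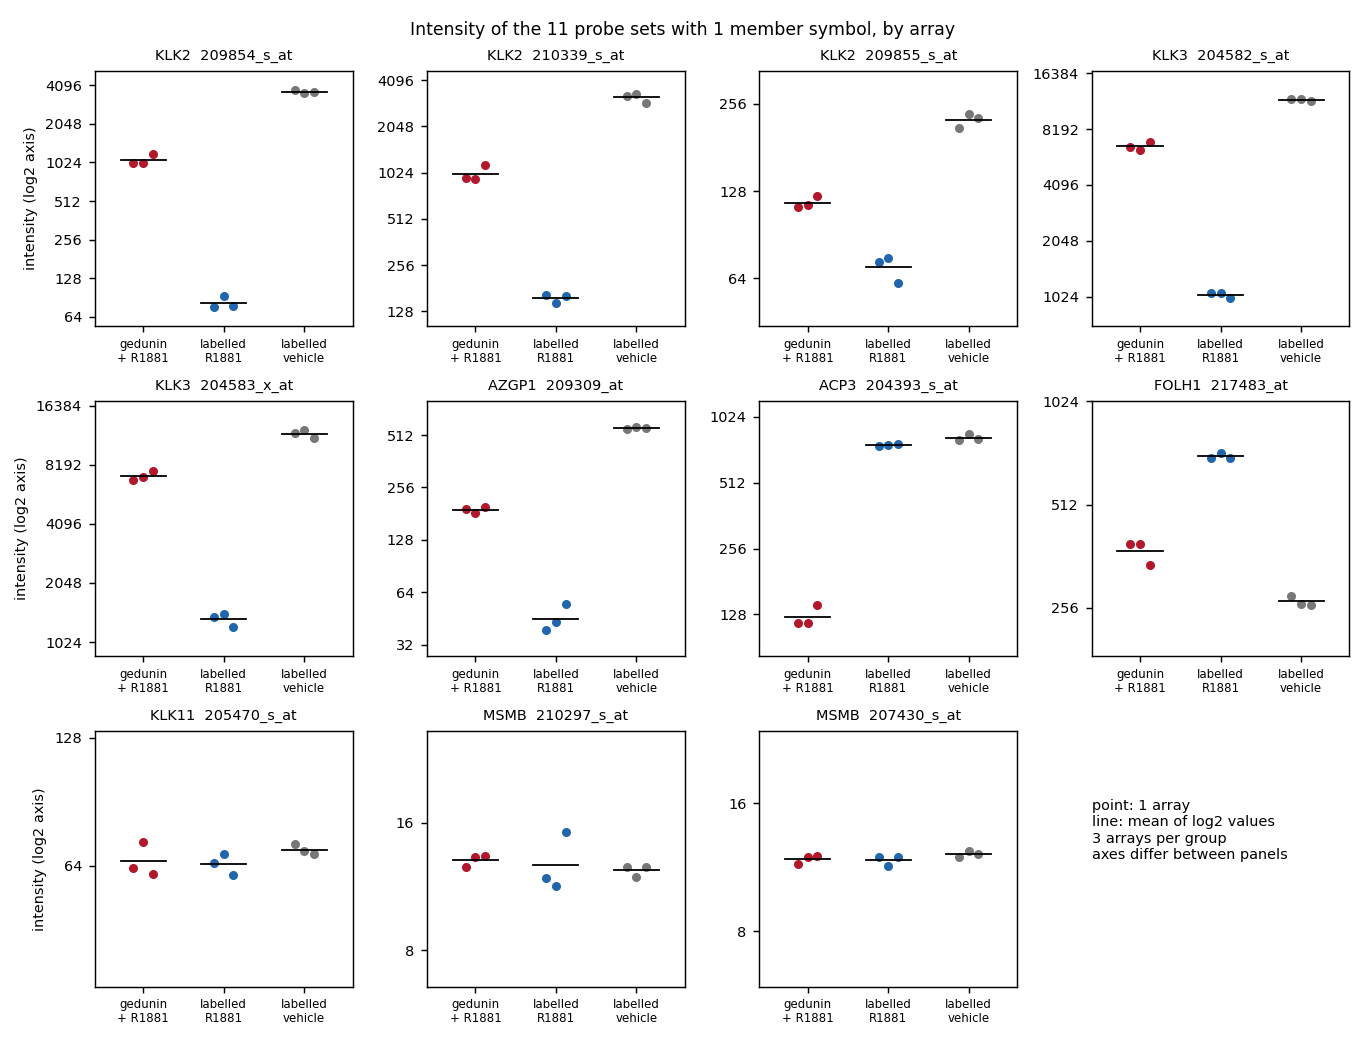
Intensity of each of the 11 probe sets (log2 axis, its range differs between panels) in the gedunin plus R1881, labelled R1881 and labelled vehicle arrays; points are arrays and lines are means of log2 values, 3 arrays per group. KLK2, KLK3 and AZGP1 place the gedunin arrays between the other groups, ACP3 places them alone at the bottom, and FOLH1 runs in the opposite order to KLK3.

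KLK2 and KLK3 lie next to each other in the kallikrein cluster on chromosome 19, with KLK15 and KLK4 as the outer neighbours. Their promoters, and those of AZGP1 and ACP3, are shown. On the gedunin arrays, KLK2, KLK3 and AZGP1 were higher than on the R1881-labelled arrays and ACP3 was lower. KLK11, which was not called, was searched for the same motifs, but its windows are not shown. Whether sequence and direction go together was not tested. The windows run from 250 bases before to 50 bases after the start in RefSeq on GRCh38.p14: KLK2 at chr19:50873189-50873488, plus strand, KLK3 at chr19:50854665-50854964, plus strand, AZGP1 at chr7:99975982-99976281, minus strand, and ACP3 at chr3:132317157-132317456, plus strand. Capitals mark matches, on either strand, to AGAACA (1 arm of the androgen response element), to GAACA and AGTGCT with any 3 bases between them (a pattern written down after the sequences had been read, and overlapping AGAACA where both occur) and to TATAAA, which appears as TTTATA on the opposite strand.
KLK2: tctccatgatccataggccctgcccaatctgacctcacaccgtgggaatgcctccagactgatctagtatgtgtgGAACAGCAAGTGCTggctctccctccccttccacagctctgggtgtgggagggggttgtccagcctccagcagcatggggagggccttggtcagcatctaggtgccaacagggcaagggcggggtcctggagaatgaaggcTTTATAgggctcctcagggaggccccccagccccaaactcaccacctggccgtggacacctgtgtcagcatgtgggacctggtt
KLK3: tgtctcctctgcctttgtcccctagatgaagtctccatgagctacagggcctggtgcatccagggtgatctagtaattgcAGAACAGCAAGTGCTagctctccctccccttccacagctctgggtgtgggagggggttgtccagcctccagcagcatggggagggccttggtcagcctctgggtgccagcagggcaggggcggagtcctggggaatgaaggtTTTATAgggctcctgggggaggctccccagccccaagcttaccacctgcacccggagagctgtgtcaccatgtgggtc
AZGP1: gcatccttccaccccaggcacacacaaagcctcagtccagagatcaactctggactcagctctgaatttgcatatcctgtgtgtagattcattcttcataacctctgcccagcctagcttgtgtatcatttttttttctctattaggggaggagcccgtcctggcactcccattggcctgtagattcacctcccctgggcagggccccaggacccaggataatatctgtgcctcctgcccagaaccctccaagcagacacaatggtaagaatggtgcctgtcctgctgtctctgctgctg
ACP3: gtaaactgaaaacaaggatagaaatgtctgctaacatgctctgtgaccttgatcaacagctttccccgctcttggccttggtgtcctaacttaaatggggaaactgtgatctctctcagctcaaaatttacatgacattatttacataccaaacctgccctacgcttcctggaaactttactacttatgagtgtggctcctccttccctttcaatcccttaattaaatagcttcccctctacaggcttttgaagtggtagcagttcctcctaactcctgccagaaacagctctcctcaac

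Aligned to each other, the KLK2 and KLK3 windows were identical at 245 of the aligned bases and differed at 46, an identity of 84.2%. Both hold GAACA and AGTGCT with 3 bases between them, beginning 175 bases before the start of KLK2 and 169 before that of KLK3. Of all 35116 promoter windows, 15 hold this pattern (0.043%). Because it was written down after these windows had been read, its matches here and that share are descriptive only. As background, this stretch of KLK3 is known as its proximal androgen response element. AGAACA was found in KLK3 alone of the 5 members with a window (14.8% of all windows hold it), and TATAAA in KLK2 and KLK3 (11.5% of all windows). The palindromic androgen response element (AGAACA and TGTTCT with 3 bases between them) and its relaxed form (GNACA and TGTNC with 3 bases between them), in 0.003% and 0.39% of all windows, had no match in any member window, and neither AZGP1, ACP3 nor KLK11 matched any of these motifs. A match describes letters in this window only.

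KLK2 was measured by 3 probe sets, and all placed the arrays in the same order. Probe set 209854_s_at read 1012, 1009 and 1193 on the gedunin arrays, 76.5, 92.3 and 78.4 on the R1881-labelled arrays, and 3766, 3586 and 3615 on the vehicle-labelled arrays. The groups did not overlap, with the R1881-labelled arrays lowest and the vehicle-labelled arrays highest. The log2 fold change was 3.70 ± 0.084 (SE) for gedunin plus R1881 over labelled R1881 (13.0-fold, limma adjusted p = 2.1e-11), 4th from the top of all 22215 probe sets. It was -5.48 ± 0.084 for labelled R1881 over labelled vehicle (44.5-fold lower, adjusted p = 9.61e-13), the largest fall of any probe set in that comparison. The gedunin arrays were 3.42-fold below the vehicle-labelled arrays (-1.77 ± 0.084, adjusted p = 8.91e-09).

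Probe set 210339_s_at of KLK2 read 947, 933 and 1140 on the gedunin arrays, 164, 145 and 160 on the R1881-labelled arrays, and 3242, 3338 and 2913 on the vehicle-labelled arrays. Its folds were 6.41 higher (log2 2.68 ± 0.086), 20.2 lower (-4.34 ± 0.086) and 3.15 lower (-1.66 ± 0.086) in the same 3 comparisons, each with a limma adjusted p of 2.14e-08 or less. Probe set 209855_s_at of KLK2 read 112, 115 and 123 on the gedunin arrays, 72.9, 75.3 and 61.9 on the R1881-labelled arrays, and 211, 235 and 228 on the vehicle-labelled arrays. Its log2 fold changes were 0.74 ± 0.079, -1.69 ± 0.079 and -0.95 ± 0.079, all called. All 3 KLK2 probe sets were thus lowest on the R1881-labelled arrays and highest on the vehicle-labelled arrays. The measured size of the change ranged from 3.22-fold to 44.5-fold between these groups.

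Ratios of KLK2 probe sets within an array describe how unequal the measured changes were. On the R1881-labelled arrays 209854_s_at averaged 82.4 and 209855_s_at 70.0, not far above the array medians of 52.4 to 54.5. Signal this near the medians may be partly background, which was not tested. KLK2 folds and ratios against the R1881-labelled arrays are therefore approximate. The log2 ratio of 209854_s_at to 209855_s_at was 3.19 ± 0.070 on the gedunin arrays, 0.23 ± 0.14 on the R1881-labelled arrays and 4.02 ± 0.12 on the vehicle-labelled arrays (SD, n = 3 each). The ratio of 209854_s_at to 210339_s_at was 0.09 ± 0.024, -0.93 ± 0.24 and 0.21 ± 0.10 in this order. The R1881-labelled arrays stood apart from both other groups in each ratio without overlap (exact two-sided permutation p = 0.1, the smallest that 3 arrays against 3 allow). For the second ratio the gedunin arrays and the vehicle-labelled arrays overlapped (exact permutation p = 0.2). KLK2 and KLK3 are close paralogs, and whether a probe set reads both transcripts was not tested.

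KLK3, the gene of prostate-specific antigen, was among the brightest on the array in every group. Probe set 204582_s_at read 6567, 6349 and 6972 on the gedunin arrays, 1073, 1071 and 1002 on the R1881-labelled arrays, and 11974, 11956 and 11544 on the vehicle-labelled arrays. Even on the R1881-labelled arrays, where it was lowest, this probe set lay at a mean percentile of 96.1 of all probe sets, and it lay at 99.4 on the gedunin arrays and 99.9 on the vehicle-labelled arrays. The log2 fold change was 2.66 ± 0.057 for gedunin plus R1881 over labelled R1881 (6.32-fold, adjusted p = 1.54e-11). It was -3.50 ± 0.057 for labelled R1881 over labelled vehicle (11.3-fold lower, adjusted p = 9.61e-13), and -0.84 ± 0.057 for gedunin plus R1881 over labelled vehicle (1.78-fold lower, adjusted p = 2.85e-07).

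Probe set 204583_x_at of KLK3 read 6872, 7144 and 7630 on the gedunin arrays, 1375, 1424 and 1224 on the R1881-labelled arrays, and 11947, 12290 and 11280 on the vehicle-labelled arrays. It followed the same order with somewhat smaller changes of 5.39-fold higher, 8.84-fold lower and 1.64-fold lower. The log2 ratio of 204582_s_at to 204583_x_at was -0.12 ± 0.053 on the gedunin arrays, -0.35 ± 0.062 on the R1881-labelled arrays and 0.00 ± 0.037 on the vehicle-labelled arrays (SD, n = 3 each; exact permutation p = 0.1 for each pair of groups). Between the R1881-labelled and vehicle-labelled arrays this ratio moved by -0.35, beside -1.14 and -3.79 for the KLK2 ratios, and between the gedunin and vehicle-labelled arrays by -0.12, as did the ratio of 209854_s_at to 210339_s_at.

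The gedunin arrays can be placed between the other groups on the log2 scale, where 0% stands for the mean labelled R1881 and 100% for the mean labelled vehicle. KLK3 lay at 76.1% (74.3 to 78.2 over the 3 gedunin arrays) and 77.3% (75.1 to 79.9) by its probe sets. KLK2 lay at 67.6% (66.1 to 70.5), 61.8% (59.4 to 66.1) and 44.0% (40.8 to 48.7) for 209854_s_at, 210339_s_at and 209855_s_at. By these probe sets KLK3 sat closer to the vehicle-labelled arrays than KLK2 did, with no overlap between the arrays of the 2 genes. On the R1881-labelled arrays, which set 0%, KLK3 averaged 1049 and 1341 but KLK2 70.0 to 157, nearer the array medians. KLK2 itself spread from 44.0% to 67.6%, so the positions depend on the probe set and do not by themselves rank the genes. The log2 ratio of KLK2 (209854_s_at) to KLK3 (204582_s_at), of which only the difference between groups can be read, was -2.63 ± 0.078 on the gedunin arrays, -3.67 ± 0.14 on the R1881-labelled arrays and -1.69 ± 0.038 on the vehicle-labelled arrays (SD, n = 3 each). Each pair of groups differed without overlap, at the smallest exact permutation p of 0.1.

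KLK11 did not follow KLK2 and KLK3. It read 63.0, 72.6 and 61.3 on the gedunin arrays, 64.8, 68.1 and 60.7 on the R1881-labelled arrays, and 71.9, 69.3 and 68.1 on the vehicle-labelled arrays. The gedunin arrays overlapped both other groups, while the R1881-labelled and vehicle-labelled arrays only shared a value (68.1). All values lay a little above the array medians. No comparison passed, with 95% intervals of the log2 fold change of -0.13 to 0.18 for gedunin plus R1881 over labelled R1881, -0.27 to 0.04 for labelled R1881 over labelled vehicle and -0.25 to 0.07 for gedunin plus R1881 over labelled vehicle. Of the 12 other kallikrein genes listed, 10 were measured, each by its brightest probe set. KLK4, the other neighbour of KLK2, and KLK9 were not analysed. Over all 11963 genes taken in this way, 26.7% were called between the gedunin and R1881-labelled arrays, 29.5% between the R1881-labelled and vehicle-labelled arrays and 26.2% between the gedunin and vehicle-labelled arrays. Limma called 0 of the 10 between the gedunin arrays and either other group, and at an unadjusted p under 0.05 there were 1 against the R1881-labelled arrays and 0 against the vehicle-labelled arrays. KLK15, the other neighbour of KLK3, was the 1 called gene between the R1881-labelled and vehicle-labelled arrays (-0.39 ± 0.091, adjusted p = 0.00589), from intensities of 24.9 ± 1.80 and 32.5 ± 1.71 (SD, n = 3 each) that lie under the array medians, so its fold is approximate. Group means of these 10 genes lay at 87.0 or less.

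ACP3, which encodes the phosphatase long used as a serum marker of prostate cancer, had a pattern of its own among the members. It read 117, 117 and 141 on the gedunin arrays, 750, 759 and 768 on the R1881-labelled arrays, and 801, 856 and 811 on the vehicle-labelled arrays. The gedunin arrays lay far below all 6 others. The R1881-labelled arrays lay just below the vehicle-labelled arrays, without overlap. The log2 fold change was -2.61 ± 0.074 for gedunin plus R1881 over labelled R1881 (6.11-fold lower, adjusted p = 9.65e-11), 13th from the bottom of all probe sets, and -2.73 ± 0.074 over labelled vehicle (6.62-fold lower, adjusted p = 7.86e-11). Between labelled R1881 and labelled vehicle it was -0.12 ± 0.074 (adjusted p = 0.306), with a 95% interval of -0.28 to 0.05. Because the gedunin arrays were lower than each other group, the direction for ACP3 would be the same if the labels R1881 and vehicle were exchanged, whereas the KLK2, KLK3, AZGP1 and FOLH1 directions would turn.

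The log2 ratio of ACP3 to KLK3 (204582_s_at) was -5.74 ± 0.098 on the gedunin arrays, -0.47 ± 0.071 on the R1881-labelled arrays and -3.85 ± 0.050 on the vehicle-labelled arrays (SD, n = 3 each). The difference between the gedunin and R1881-labelled arrays was -5.27 in this ratio, with an exact permutation p of 0.1, the smallest possible. The 3 genes whose log2 values were most like those of ACP3 over the 9 arrays were SLC4A4, a sodium bicarbonate cotransporter gene (Pearson r = 0.995), MAOA, the gene of monoamine oxidase A (0.995), and CALML4 (0.994). Each was lowest on the gedunin arrays. MAOA averaged 930 on the gedunin arrays, against 1845 on the R1881-labelled arrays and 1927 on the vehicle-labelled arrays. SLC4A4 averaged 398, 779 and 804 in the same order. The 9 arrays form 3 groups, so these correlations mainly describe the order of 3 group means.

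AZGP1, the secreted zinc-alpha-2-glycoprotein, followed KLK2 and KLK3. Probe set 209309_at read 192, 182 and 198 on the gedunin arrays, 38.8, 43.3 and 54.7 on the R1881-labelled arrays, and 557, 569 and 564 on the vehicle-labelled arrays. The groups did not overlap, and the R1881-labelled arrays averaged 45.6, under the lowest array median of 52.4, so folds against them are approximate. The log2 fold change was 2.08 ± 0.099 for gedunin plus R1881 over labelled R1881 (4.22-fold, adjusted p = 9.43e-09). It was -3.64 ± 0.099 for labelled R1881 over labelled vehicle (12.5-fold lower, adjusted p = 3.47e-11), 15th from the bottom, and -1.57 ± 0.099 for gedunin plus R1881 over labelled vehicle (2.96-fold lower, adjusted p = 1.36e-07). By this probe set the gedunin arrays lay at 57.0% of the way to the vehicle-labelled arrays (55.2 to 58.5), beside 76.1% for KLK3 by 204582_s_at. Such positions depend on the probe set and do not rank the genes. The log2 ratio of AZGP1 to KLK3 was -5.12 ± 0.022 on the gedunin arrays, -4.54 ± 0.31 on the R1881-labelled arrays and -4.39 ± 0.034 on the vehicle-labelled arrays (SD, n = 3 each). The last pair of groups overlapped in this ratio (exact permutation p = 0.4).

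Probe set 217014_s_at, which the annotation gives to AZGP1 and its pseudogene AZGP1P1 together, read 108, 107 and 109 on the gedunin arrays, 64.0, 49.8 and 50.5 on the R1881-labelled arrays, and 244, 262 and 265 on the vehicle-labelled arrays. Its changes had the same signs as those of 209309_at and were smaller, with log2 fold changes of 0.99 ± 0.086, -2.24 ± 0.086 and -1.25 ± 0.086, all called. By this shared probe set the gedunin arrays lay at 44.1% of the way to the vehicle-labelled arrays. The probe set of AZGP1P1 alone was dim, at 33.4 ± 2.70, 30.6 ± 2.64 and 40.2 ± 4.58 (SD, n = 3 each) on the gedunin arrays, the R1881-labelled arrays and the vehicle-labelled arrays. Its log2 fold change was 0.13 ± 0.093 for gedunin plus R1881 over labelled R1881 (adjusted p = 0.415), -0.39 ± 0.093 for labelled R1881 over labelled vehicle (adjusted p = 0.00683) and -0.26 ± 0.093 for gedunin plus R1881 over labelled vehicle (adjusted p = 0.0609).

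MSMB was at the bottom of the array in all 9 cultures. Probe set 207430_s_at read 11.5, 12.0 and 12.0 on the gedunin arrays, 12.0, 11.4 and 12.0 on the R1881-labelled arrays, and 12.0, 12.3 and 12.1 on the vehicle-labelled arrays. Probe set 210297_s_at ranged from 12.6 to 13.4, from 11.4 to 15.2 and from 11.9 to 12.6 in the same order. Group means lay between the percentiles 1.93 and 4.70 of all probe sets, and several arrays had exactly equal values. The groups overlapped or shared a value, and no comparison passed, with 95% intervals within -0.16 and 0.28 on the log2 scale. Values this near the lowest on the array may be background, which was not tested.

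FOLH1 ran opposite to KLK2 and KLK3. Its own probe set, 217483_at, read 393, 393 and 342 on the gedunin arrays (the first 2 exactly equal), 698, 726 and 699 on the R1881-labelled arrays, and 278, 264 and 262 on the vehicle-labelled arrays. The groups did not overlap, with the R1881-labelled arrays highest and the vehicle-labelled arrays lowest. The log2 fold change was -0.92 ± 0.065 for gedunin plus R1881 over labelled R1881 (1.89-fold lower, adjusted p = 3.16e-07), 1.40 ± 0.065 for labelled R1881 over labelled vehicle (2.65-fold higher, adjusted p = 3.9e-09) and 0.49 ± 0.065 for gedunin plus R1881 over labelled vehicle (1.40-fold higher, adjusted p = 9.33e-05). The gedunin arrays lay at 65.2% of the way to the vehicle-labelled arrays (60.5 to 74.8).

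FOLH1B is a near-identical copy of FOLH1, and 3 probe sets are annotated to both. They averaged 3295 ± 35.5, 4031 ± 27.3 and 2916 ± 11.6 on the gedunin arrays, 5885 ± 182, 6901 ± 360 and 5176 ± 172 on the R1881-labelled arrays, and 1866 ± 65.7, 2339 ± 61.1 and 1759 ± 65.5 on the vehicle-labelled arrays (SD, n = 3 each), for 205860_x_at, 215363_x_at and 217487_x_at. All 3 were called in each comparison, with log2 fold changes of -0.84 to -0.77 for gedunin plus R1881 over labelled R1881, 1.56 to 1.66 for labelled R1881 over labelled vehicle and 0.73 to 0.82 for gedunin plus R1881 over labelled vehicle. The probe set annotated to FOLH1B alone, 211303_x_at, had changes of -0.89 ± 0.055, 1.69 ± 0.055 and 0.80 ± 0.055. These probe sets cannot separate the 2 genes. The gedunin arrays lay at 49.7% to 53.1% of the way to the vehicle-labelled arrays in the shared probe sets, below the 65.2% of the FOLH1 probe set.

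**Figure D2:**
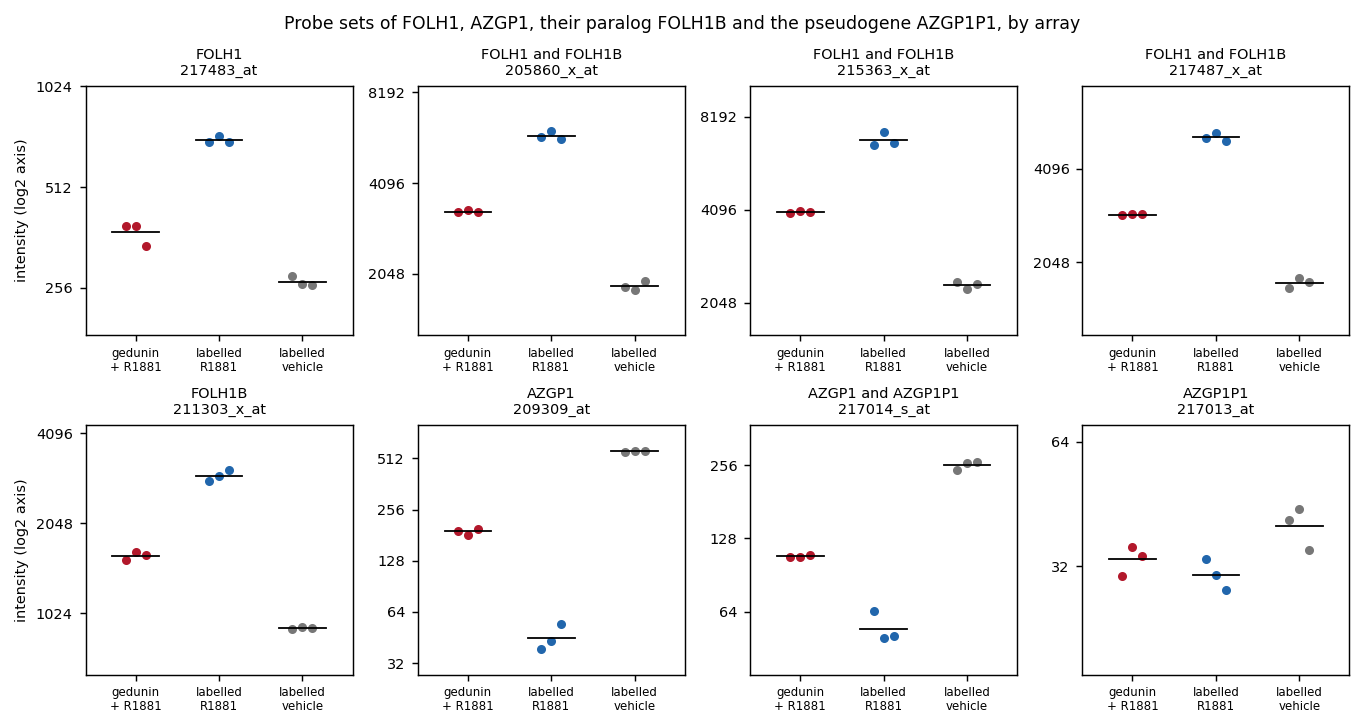
Intensity (log2 axis, its range differs between panels) of the probe sets of FOLH1, FOLH1B, AZGP1 and AZGP1P1 in the gedunin plus R1881, labelled R1881 and labelled vehicle arrays; points are arrays and lines are means of log2 values. The 5 probe sets of FOLH1 and FOLH1B are highest on the R1881-labelled arrays, and those annotated to AZGP1 are lowest there.

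**Figure D3:**
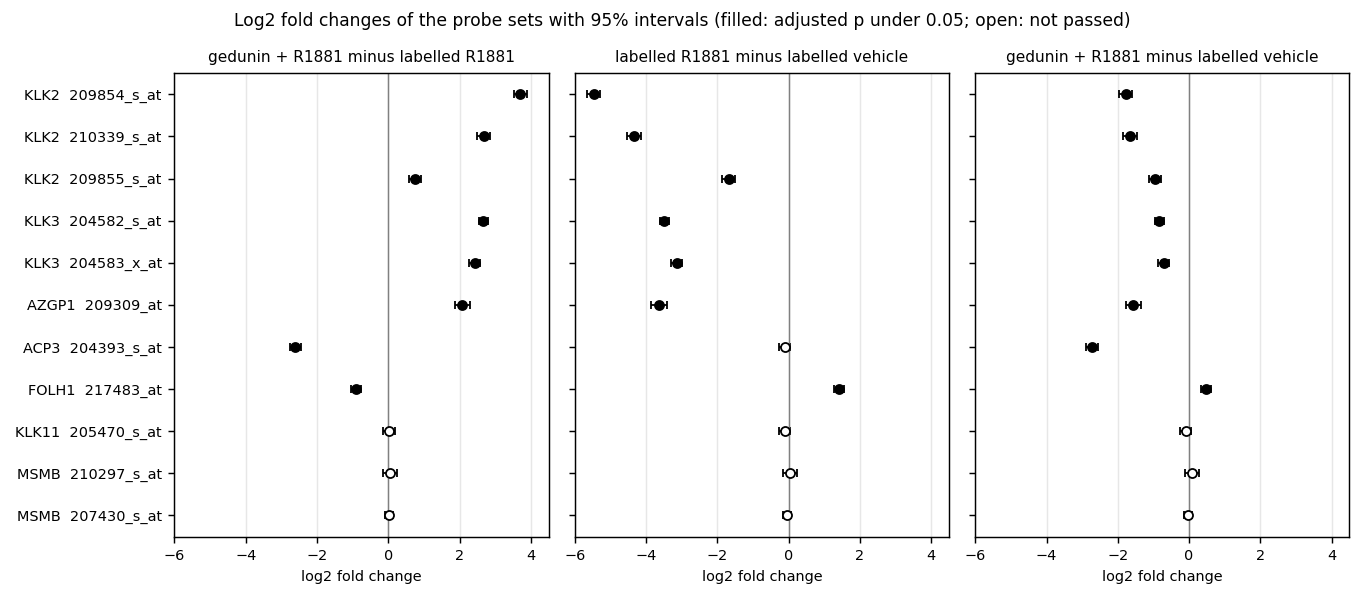
Log2 fold change (points) with its 95% interval (bars, from limma) of the 11 probe sets for gedunin plus R1881 minus labelled R1881, labelled R1881 minus labelled vehicle, and gedunin plus R1881 minus labelled vehicle; filled points have an adjusted p under 0.05. The 6 probe sets of KLK2, KLK3 and AZGP1 are positive in the first panel and negative in the others, while ACP3 is near 0 in the second panel alone.

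The likeness of other genes to the remaining members was also taken over the 9 arrays, each gene by its brightest probe set. Most like KLK2 were TPD52 (Pearson r = 0.999), ABCC4, a multidrug efflux transporter gene (0.998), and NANS, the gene of sialic acid synthase (0.998). Most like KLK3 were GUCY1A1, a subunit of soluble guanylate cyclase (0.999), S100P (0.998) and MAPK6 (0.998). AZGP1 was closest to CENPN, a centromere protein gene, and UAP1, an enzyme of UDP-N-acetylglucosamine synthesis (0.998 each), and to ABHD2 (0.997). FOLH1 was closest to UGT2B15, which glucuronidates androgens (0.995), PPP3CA, the calcineurin catalytic subunit (0.995), and NCAM2 (0.994). UGT2B15 averaged 206 on the gedunin arrays, 871 on the R1881-labelled arrays and 95.7 on the vehicle-labelled arrays. For KLK11 the closest were FGF5 (0.950), NOS1AP (0.916) and HAL (0.897), and for MSMB they were FLT4 (0.962), MPZL2 (0.923) and MOG (0.922), all from genes whose group means lay at 60.2 or less. Neither KLK11 nor MSMB was called in any comparison, so their correlations rest on small differences between arrays.

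Of a list of 40 other androgen-induced genes, 31 were measured, each taken by its brightest probe set. On the gedunin arrays, 22 were higher than on the R1881-labelled arrays and 3 were lower (median log2 fold change 0.81, beside -0.01 over all genes, of which 13.7% were called higher). GNMT, glycine N-methyltransferase, was at 2.38 ± 0.081, TMPRSS2 at 2.35 ± 0.081, DNAJB9, an endoplasmic reticulum co-chaperone, at 2.19 ± 0.059 and CENPN at 1.82 ± 0.074. Between the R1881-labelled and vehicle-labelled arrays, 30 were lower and 0 higher (median -2.48), beside 13.2% of all genes called lower, with FKBP5 at -5.33 (approximate, since its R1881-labelled mean of 45.1 lies under the array medians), NCAPD3, a condensin subunit, at -4.16, TMPRSS2 at -4.08 and EAF2 at -4.05. Against the vehicle-labelled arrays, all 31 measured were lower on the gedunin arrays (median -1.48), beside 11.4% of all genes, with FKBP5 at -3.91, NCAPD3 at -3.39, EAF2 at -3.15 and MAF at -3.00. The called KLK2, KLK3 and AZGP1 probe sets had the signs of most of this list in each comparison. The list was chosen with earlier results of these data known, so its counts beside those of all genes are descriptive only. The androgen receptor gene itself is not analysed here.

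Of 24 listed genes of other prostatic and seminal fluid proteins, 21 were measured. The called shares lay near or under those of all genes (26.7%, 29.5% and 26.2% for gedunin plus R1881 against labelled R1881, labelled R1881 against labelled vehicle, and gedunin plus R1881 against labelled vehicle). On the gedunin arrays, relative to the R1881-labelled arrays, 4 were higher and 1 lower (median 0.02). They were led by GDF15, a stress-induced cytokine abundant in semen, at 3.62 ± 0.067, followed by ORM1, an acute-phase glycoprotein, at 0.41 ± 0.080, B2M, the light chain of MHC class I, at 0.34 ± 0.054, and NPY, neuropeptide Y, lower at -0.25 ± 0.073. Between the R1881-labelled and vehicle-labelled arrays, 4 were lower and 1 higher (median -0.05), with ORM1 at -3.80 ± 0.080, B2M at -1.27 ± 0.054, the tetraspanin gene CD9 at -0.74 ± 0.054 and GDF15 at -0.39 ± 0.067. Against the vehicle-labelled arrays, 3 were lower and 1 higher on the gedunin arrays (median -0.02), with ORM1 at -3.39, B2M at -0.93, CD9 at -0.70 and GDF15 at 3.23. ORM1 averaged 28.9 ± 0.908 on the gedunin arrays, 21.8 ± 1.32 on the R1881-labelled arrays and 304 ± 33.9 on the vehicle-labelled arrays (SD, n = 3 each), so its folds are approximate.

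**Figure D4:**
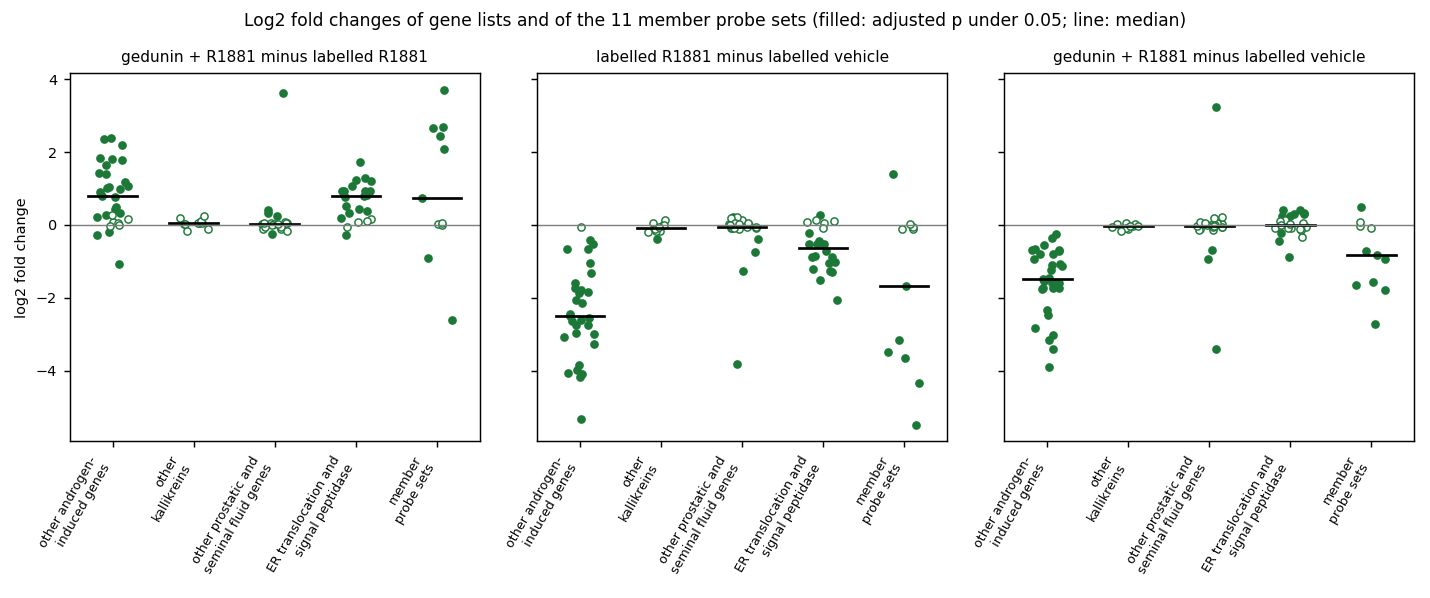
Log2 fold changes of the measured genes of 4 lists (1 probe set per gene) and of the 11 member probe sets in the same 3 comparisons; each point is a gene or probe set, filled where the adjusted p is under 0.05, and lines are medians. The median of the 31 other androgen-induced genes is 0.81 in the first panel, -2.48 in the second and -1.48 in the third, while the 10 other kallikreins lie close to 0.

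Of 16 listed genes of the androgen receptor, its partner transcription factors, coactivators and chaperones, 10 were measured. On the gedunin arrays, relative to the R1881-labelled arrays, 2 were higher and 4 lower (median 0.01, 26.7% of all genes called), with HOXB13, a homeobox factor of the prostate, at -1.08 ± 0.10, GATA2 at -0.80 ± 0.061, HSP90AA1, the inducible HSP90 gene, at 0.74 ± 0.053 and the coactivator gene NCOA2 at -0.71 ± 0.064. Between the R1881-labelled and vehicle-labelled arrays, 6 were higher and 2 lower (median 0.20, 29.5% of all genes called), with SPDEF, an ETS factor of prostate epithelium, at -1.59 ± 0.066, NCOA2 at 1.27, GATA2 at 0.98 and HOXB13 at 0.60. SPDEF averaged 330 ± 27.98 on the gedunin arrays, 315 ± 8.24 on the R1881-labelled arrays and 949 ± 33.7 on the vehicle-labelled arrays (SD, n = 3 each). Its log2 fold change for gedunin plus R1881 over labelled vehicle was -1.53, where HSP90AA1 was at 0.95, NCOA2 at 0.56 and HOXB13 at -0.49, with 5 higher and 4 lower in all (median 0.21, 26.2% of all genes called).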

How the data were processed

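RNA of 9 LNCaP cultures was measured, 3 per treatment. Deposited values are a linear intensity for every probe set that the authors made by RMA, per the submitters' processing notes; which software ran it is not given in the sources used here. Quantile normalization inside RMA forces arrays to 1 distribution, so shifts in the RNA content of whole cells are invisible. The number of arrays, 3 per group, limits precision.

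Intensities were taken to log2 without an offset. Probe sets were named from the platform annotation: 19064 of 22215 had 1 symbol, 1043 several and 2108 none. The RefSeq gene table (GRCh38.p14) served for names only, with 12 probe sets unmatched and 0 symbols changed. All 22215 were fitted with limma 3.58.1 in R 4.3.3 (1 coefficient per group, all 9 arrays, eBayes without trend, 6.08 prior degrees of freedom), with two-sided tests, and tested on simulated data. Promoters are from RefSeq; MSMB and FOLH1 had no entry. The members and lists were chosen with earlier results of these data known. All member probe sets, FKBP5 and TMPRSS2 were named whatever their values, as were up to 4 called genes per list and comparison with the largest change and the 3 genes most like each member. Alternatives were a replicate block, an offset of 16, median centring, quantile normalization again, a filter on dim probe sets, an intensity trend, 2-group fits, 1 probe set per gene, and each array left out. Same-numbered replicates of different groups had deviations correlated at -0.10 to 0.14 over 9 pairs, against -0.15 to 0.16 for other numbers, so the numbers were not taken as pairs.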

Additional observations from a re-analysis of the deposited data

How the results depend on the processing

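Every called member probe set, the 4 shared ones included, kept its direction and its call in the alternatives that gave it a value, up to 17 per comparison. The number of called member probe sets stayed at 7 (labelled R1881 against labelled vehicle), 8 (gedunin plus R1881 against labelled R1881) and 8 (gedunin plus R1881 against labelled vehicle) with the replicate block and without any one array. With 1 probe set per gene these counts became 4, 5 and 5, since only 7 genes can then be counted. The sign of 4 values that were not called turned when 1 array was left out. Between gedunin plus R1881 and labelled R1881 they ran from -0.053 to 0.070 for KLK11, from -0.017 to 0.028 for MSMB by 207430_s_at and from -0.038 to 0.17 by 210297_s_at. Between labelled R1881 and labelled vehicle, 210297_s_at ran from -0.091 to 0.12. The filter on dim probe sets left MSMB untested. The offset of 16 gave smaller changes for AZGP1, at -3.24 in place of -3.64 between labelled R1881 and labelled vehicle. KLK2 changes also became smaller in that comparison, at -5.22 in place of -5.48 by 209854_s_at and -1.49 in place of -1.69 by 209855_s_at. The replicate block gave 5897, 5297 and 5107 calls over all probe sets, in place of 6007, 5406 and 5223. Signal at the bottom of the array limits MSMB. A mean signal under the array medians limits the AZGP1 level on the R1881-labelled arrays.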

Other observations

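Secreted proteins enter the endoplasmic reticulum through the translocon, and signal peptidase removes their signal sequence. Of 25 listed genes of this machinery, 22 were measured. Between the gedunin arrays and the R1881-labelled arrays, 17 were higher and 1 lower (median log2 fold change 0.79, beside -0.01 over all genes, of which 13.7% were called higher and 13% lower). The translocon-associated genes SSR3 and SSR2 were at 1.72 ± 0.14 and 1.22 ± 0.052 (SE), the signal peptidase subunit SPCS3 at 1.29 ± 0.058 and TRAM1 at 1.23 ± 0.067. Between the R1881-labelled and vehicle-labelled arrays, 16 were lower and 1 higher (median -0.62), beside 13.2% lower and 16.3% higher over all genes, with SSR3 at -2.06 ± 0.14, SPCS3 at -1.51 ± 0.058, SSR2 at -1.30 ± 0.052 and SRP19, a signal recognition particle subunit, at -1.27 ± 0.056. Between the gedunin arrays and the vehicle-labelled arrays, 7 were higher and 3 lower (median 0.01), beside 14.8% higher and 11.4% lower over all genes, with SRP19 at -0.88, SSR1 at -0.44, SPCS2 at 0.41 and SRP54 at 0.40. Limma adjusted p-values of the named genes were 0.000336 or less. This list, too, was chosen with earlier results of these data known.

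The luminal markers did not move together. KRT8 and KRT18 had the signs of KLK2 and KLK3 in the 3 comparisons and were called in each. KRT19 ran from 14.3 to 17.2 on the gedunin arrays, 14.4 to 16.8 on the R1881-labelled arrays and 29.2 to 34.9 on the vehicle-labelled arrays, under the array medians throughout. EPCAM and CDH1, which encode epithelial adhesion proteins, were higher on the R1881-labelled than on the vehicle-labelled arrays, at 0.44 and 0.21 in log2. Both were at 0.52 for gedunin plus R1881 over labelled vehicle. These signs were opposite to those of KLK2 and KLK3. For gedunin plus R1881 over labelled R1881, CDH1 was called at 0.32, the sign of KLK2 and KLK3, and EPCAM was not called (0.08, limma adjusted p = 0.405). KRT8 averaged 732 ± 67.7 on the gedunin arrays, 280 ± 21.0 on the R1881-labelled arrays and 2196 ± 78.3 on the vehicle-labelled arrays (SD, n = 3 each). KRT18 averaged 3985 ± 23.7, 1961 ± 132 and 8623 ± 253 in the same order.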
